A study of Rattus norvegicus with 9 samples.

Results

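The solute carriers are the large superfamily of membrane proteins that move nutrients, metabolites, metals, ions and vitamins across the plasma membrane and the membranes of organelles. Here they were followed in alveolar macrophages, which patrol and clear the airspaces. The genes were chosen by their measured level: the symbol begins with Slc and a digit, and the FPKM (fragments per kilobase of transcript, scaled to sequencing depth) reached 5 in at least 3 of 9 libraries. The genes left out by name were Slc7a11, Slc22a18, Slc40a1, Slc11a1 and Slc2a1, of which 3 reached the level. This gave 140 genes of 17109 in the data. Of 329 Slc genes listed, 143 reached the level with the genes left out by name included, 186 did not, and 59 stood at 0 in every library. Among the 140 genes, Slc4a1ap and Slc7a6os carry an Slc symbol without being transporters.

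The cells came from male Wistar rats that had received nitrogen mustard (NM, mechlorethamine hydrochloride, 0.125 mg/kg), a DNA-alkylating vesicant that injures the lung, or phosphate-buffered saline (PBS), by instillation into the trachea under isoflurane. Macrophages were collected by massage 1 d or 28 d after NM. There were 3 groups of 3 libraries, PBS, NM day 1 and NM day 28, which the study's description calls biological replicates and the titles number 0, 1 and 2. The labels give the PBS rats 0 days of exposure without a collection time, so that time since instillation cannot be told apart from treatment. Single libraries are written below with the labels' names, PBS_0 to PBS_2, NM1d_0 to NM1d_2 and NM28d_0 to NM28d_2. The series is about macrophage foam cells, cells laden with lipid, in the lung fibrosis that follows NM.

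Macrophages use solute carriers to feed on what they engulf as well as on what surrounds them. Plasma membrane carriers bring in amino acids, nucleosides, vitamins and osmolytes. Lysosomal carriers release the products of digestion, such as peptides, nucleosides and heme, into the cytosol, and carriers of the mitochondrial inner membrane link these pools to respiration and to lipid and heme synthesis. Many carriers work by exchange or by coupling to sodium or protons, and several amino acid carriers reach the cell surface only in a complex with the glycoprotein encoded by Slc3a2.

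Sequencing depth was not given as read numbers. The most frequent ratio between libraries of low FPKM values gave relative depths of 1.42 to 2.58 for PBS, 1 to 1.47 for NM day 1 and 1.03 to 1.12 for NM day 28, on a scale where NM1d_0 is 1. Markers of other cells moved with the groups. The summed FPKM of 15 listed genes of alveolar epithelium (Sftpd at 0 throughout) ranged from 241 to 410 in PBS, from 1038 to 3097 at day 1 and from 286 to 394 at day 28, and 8 of 14 tested were higher at day 1 than in PBS. Sums of 9 neutrophil genes ranged from 69.7 to 106, from 530.4 to 906 and from 210.2 to 724 in the same order, with 5 of 7 tested higher at day 1. Sums of 9 genes of monocytes and recruited macrophages ranged from 70.7 to 74.7, from 167 to 220.4 and from 103 to 143, with 6 of 8 higher at day 1, and those of 10 T cell genes from 22.4 to 33.4, from 61.4 to 71.4 and from 28.3 to 35.0, with 3 of 7 higher at day 1. The 8 listed genes of resident alveolar macrophages summed to between 1537 and 2881 in PBS, 1565 and 1771 at day 1 and 1834 and 2054 at day 28, with Marco at 0 in every library. Of 7 tested, Car4 and Chi3l1 were higher than PBS at both days, Pparg was lower at day 1 and Mrc1 lower at day 28. At day 28 against PBS, 4 of 7 neutrophil and 2 of 8 monocyte genes were higher. Of 14 epithelial genes 1 was higher and 2 lower, and limma gave 0 of 7 T cell genes either way. The 3 listed erythroid genes summed to between 128 and 559, 135 and 208, and 124 and 173. The part of these other cells in the changes of solute carrier genes was not tested, and fewer cells of a type cannot be told apart from less RNA per cell.

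Mitochondrial carriers held the largest share of solute carrier FPKM over the 9 libraries and in each of them except PBS_2, where amino acid and peptide carriers summed to 983 FPKM and mitochondrial carriers to 862. The 25 genes of this class held 24.4% of the FPKM summed over the 140 genes, followed by 20 genes for amino acids and peptides with 18.5% and 17 genes for inorganic ions and pH with 14.3%. The 20 genes for transition metals, magnesium and heme held 10.8%, the 17 for nucleotide sugars and other Golgi and ER transport 9.38%, the 11 for sugars, sugar phosphates and monocarboxylates 7.71%, the 11 for lipids, choline and acetyl-CoA 7.56%, the 9 for nucleosides, nucleobases and vitamins 4.25% and the 8 for organic ions and other organic solutes 2.33%. Slc25a5, which exchanges ADP for ATP across the mitochondrial inner membrane, had the highest mean FPKM over all libraries, 280.5, and Slc6a8, a creatine carrier, the lowest, 2.68. The median gene stood at 17.1 FPKM, 11 genes averaged at least 100 FPKM, and the 10 highest held 32.3% of the sum. The sum over all 140 genes lay between 4563 and 4843 FPKM in PBS, between 4071 and 4251 at day 1 and between 4309 and 4635 at day 28. The day 1 libraries were thus below every other library in this sum. The FPKM of all transcripts also differed, from 789477 to 969540 in PBS, 709397 to 776058 at day 1 and 713358 to 845425 at day 28. The sums over the 140 genes were not taken as shares of these totals.

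**Figure D1:**
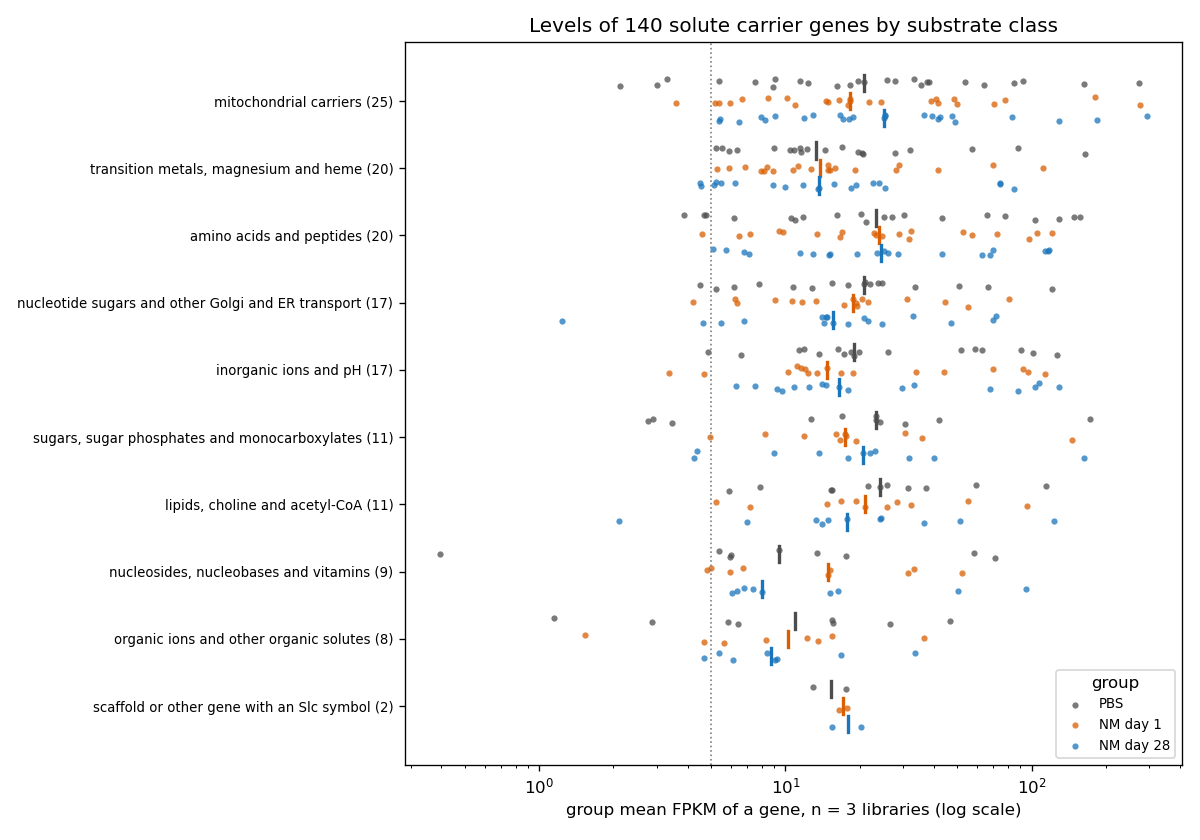
Group mean FPKM (n = 3 libraries) of each of the 140 solute carrier genes on a log axis, by substrate class, each point a gene in PBS (grey), NM day 1 (orange) or NM day 28 (blue), with short lines at class medians and a dotted line at 5 FPKM. The point farthest left is Slc28a2 in PBS, at 0.396 FPKM.

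The level rule left 105 of the 140 genes at 5 FPKM or more in all 9 libraries. Members just inside the threshold, by the FPKM of their third-highest library, were Slc16a1 at 5.01, Slc6a8 at 5.02 and Slc25a33 at 5.02, and those just outside were Slc16a11 at 4.97, Slc16a10 at 4.97 and Slc36a4 at 4.96. Slc5a3 entered through NM day 1 alone and Slc6a8 through NM day 28 alone, so their rises are given as descriptions. Slc28a2, Slc16a6, Slc25a37 and Slc22a5 reached 5 FPKM in NM libraries only, so their rises above PBS are descriptions too. Slc35g1 and Slc44a4 reached it in PBS and day 1 libraries only, and their falls at day 28 are likewise descriptions. Adjusted p-values printed below for these genes carry that limit. All 140 genes were among the 9885 tested. Since membership depends on the level, counts over the members are descriptions too.

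Most solute carrier genes were not called in any comparison, and a minority moved in each. A gene is called higher or lower where the Benjamini-Hochberg adjusted p from limma, over all 9885 genes, was under 0.05. At day 1 against PBS 6 of the 140 genes were higher and 6 lower, where 5.28% of all genes tested were higher and 4.58% lower (9.86% in all). Day 28 against PBS gave 8 higher and 11 lower, beside 3.07% and 3.98% of all genes (7.04% in all), and day 28 against day 1 gave 11 higher and 3 lower, beside 4.75% and 6.88% (11.6% in all). The median log2 fold change of the members was -0.15, -0.00 and 0.08 in these comparisons, and that of all genes tested was -0.04, -0.04 and -0.00. Without Slc5a3 and Slc6a8, the counts were 5 higher and 6 lower, 7 higher and 11 lower, and 10 higher and 2 lower. These counts are not free of the level rule. Their rises above PBS still include Slc28a2, Slc16a6, Slc25a37 and, at day 28, Slc22a5. Their falls at day 28 still include Slc35g1 and Slc44a4. In all, 33 genes were called in at least 1 comparison and 107 in none. Both comparisons with PBS share the same 3 PBS libraries.

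Slc28a2, Slc7a6, Slc16a6 and Slc25a37 were higher than PBS at both days, and Slc12a8 and Slc35c2 were lower at both. Among the rises, those of Slc28a2, Slc16a6 and Slc25a37 are descriptions, since these genes met the level rule through NM libraries only. These 6 genes carry purine nucleosides, cationic and neutral amino acids, monocarboxylates, mitochondrial iron and, in the last pair, belong to the cation-chloride cotransporter and nucleotide sugar transporter families. Calls more than 2-fold in size on the log2(FPKM + 1) scale numbered 5 at day 1 against PBS, 9 at day 28 against PBS and 3 between the NM days. They include Slc5a3 at day 1, Slc6a8 at day 28 and both genes between the NM days. The share of all genes tested with calls of that size was not counted, so these numbers are descriptions. The counts rested on particular libraries. The count of 6 lower at day 1 became 2 without PBS_0, 0 by limma without PBS_1 (19 at an unadjusted p under 0.05), 0 without NM1d_0 (18 unadjusted) and 11 without NM28d_1, and the 6 higher became 3 without NM1d_0. The 8 higher at day 28 became 5 without PBS_1, NM1d_2 or NM28d_0, and 4 without NM28d_2. The 11 lower at day 28 became 5 without PBS_0 or NM28d_2, 3 without PBS_1, 7 without PBS_2 or NM28d_0 and 6 without NM1d_2. Between the NM days, the 11 higher became 6 without PBS_1, NM1d_2 or NM28d_1, 5 without NM28d_0 and 4 without NM1d_0 or NM28d_2, and the 3 lower became 1 without either of the last pair and 5 without NM28d_1.

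**Figure D2:**
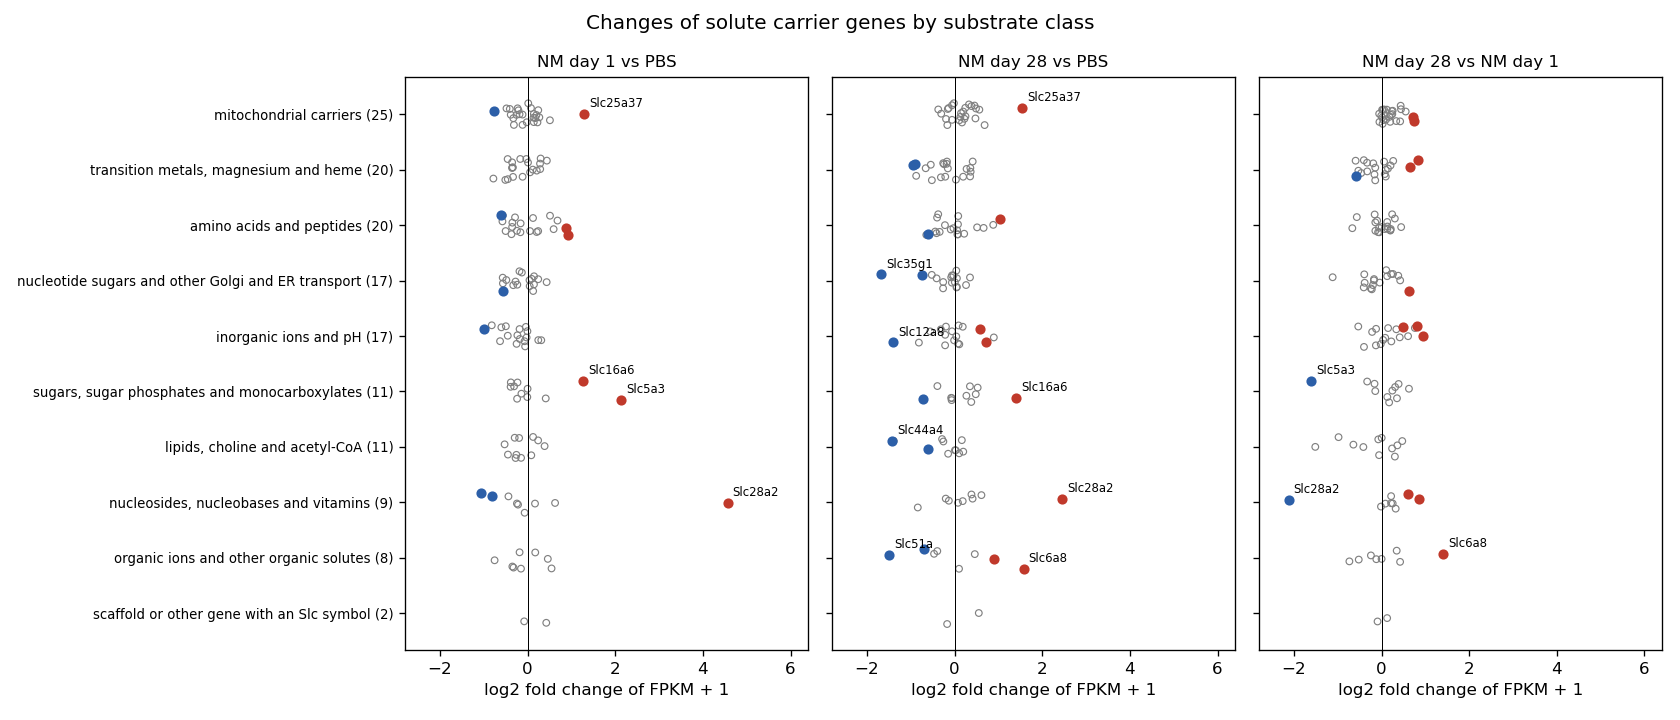
Log2 fold change on the log2(FPKM + 1) scale of each solute carrier gene by substrate class in each of the 3 comparisons, with called genes in red (higher) or blue (lower) and the others as open grey circles. Slc28a2 lies farthest from 0, at 4.57 for day 1 against PBS.

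Promoter sequences are shown for the genes with the largest log2 fold change upward in each comparison, Slc28a2 against PBS and Slc6a8 between the NM days, and for Slc5a3, next to Slc28a2 at day 1. The 250 bases before the annotated start are from RefSeq on the assembly GRCr8, 5′ to 3′ on the gene's strand, which is the plus strand for all 3. Capitals mark matches on either strand to the TATA box TATAAA, the GC box GGGCGG, the AP-1 site TGANTCA or an NF-kappaB site written as 3 G, 5 of any base and 2 C, of which the GC box and the NF-kappaB site can overlap.
Slc28a2, chr3:129819538-129819787: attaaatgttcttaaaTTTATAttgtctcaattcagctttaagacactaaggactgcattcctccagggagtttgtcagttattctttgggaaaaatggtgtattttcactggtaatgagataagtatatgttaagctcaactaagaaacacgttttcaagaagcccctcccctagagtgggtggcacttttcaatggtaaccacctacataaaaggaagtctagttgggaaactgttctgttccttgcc
Slc5a3, chr11:44799537-44799786: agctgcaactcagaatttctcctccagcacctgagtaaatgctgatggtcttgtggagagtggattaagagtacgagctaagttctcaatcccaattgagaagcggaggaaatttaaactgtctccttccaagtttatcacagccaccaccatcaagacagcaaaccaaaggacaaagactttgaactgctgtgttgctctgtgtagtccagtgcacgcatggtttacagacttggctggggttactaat
Slc6a8, chrX:156535767-156536016: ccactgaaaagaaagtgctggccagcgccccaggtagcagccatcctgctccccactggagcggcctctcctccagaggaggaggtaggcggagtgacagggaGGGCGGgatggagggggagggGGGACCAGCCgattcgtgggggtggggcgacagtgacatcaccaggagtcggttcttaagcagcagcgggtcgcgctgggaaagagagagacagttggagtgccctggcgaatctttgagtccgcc
Slc28a2 had 38% G and C and 1 CpG, and its match was to TATAAA on the complementary strand, 234 to 229 bases before the start. Slc5a3 had 45.2% G and C, 3 CpG and no match in this window. Slc6a8 had 64.4% G and C and 13 CpG, with GGGCGG 147 to 142 bases and the NF-kappaB letters 126 to 117 bases before the start. Promoters were found for 114 of the 140 genes (120 promoters), with a median of 60.2% G and C against 51.2% over all 33469 promoters of the table, and 2 member genes had less G and C than Slc28a2. TATAAA occurred in 12.9% of all promoters and 5.83% of the members', GGGCGG in 30.5% and 61.7%, TGANTCA in 6.34% and 7.5%, and the NF-kappaB letters in 42.3% and 66.7%. Slc16a6, Slc25a37 and Slc26a6 had no entry in the table.

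Carriers of nucleosides and vitamins held the largest change. Slc28a2, the sodium-coupled concentrative carrier of purine nucleosides and uridine, was near absent in PBS macrophages, abundant 1 d after NM and intermediate at 28 d. Its FPKM was 0.458, 0.0635 and 0.666 in PBS, 32.0, 32.3 and 30.1 at day 1 and 8.30, 4.004 and 7.998 at day 28. The groups did not overlap, and the day 1 libraries averaged 31.5 ± 1.18 FPKM (SD, n = 3). In these libraries the marker sums ran from 1038 to 3097 for epithelium and from 530.4 to 906 for neutrophils. Those for monocytes ran from 167 to 220.4 and those for T cells from 61.4 to 71.4. All were above their PBS range, and the part of these cells in the Slc28a2 change was not tested. Its log2 fold change was 4.57 (SE 0.27, adjusted p = 2.72e-06) at day 1 and 2.45 (SE 0.27, adjusted p = 0.000401) at day 28 against PBS, and -2.12 (SE 0.27, adjusted p = 0.000652) from day 1 to day 28.

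Slc29a3 moved the other way at day 1. It encodes an equilibrative nucleoside carrier of lysosomes and endosomes, which lets nucleosides from degraded nucleic acid leave. Its FPKM was 52.6, 63.7 and 58.3 in PBS, 26.5, 40.7 and 32.3 at day 1 and 52.0, 51.6 and 47.4 at day 28. All day 1 libraries lay below all others, by -0.81 on the log2 scale (SE 0.17, adjusted p = 0.0137) from PBS, and day 28 was above day 1 by 0.61 (SE 0.17, adjusted p = 0.0406). The ratio of Slc28a2 to Slc29a3 FPKM ran from 0.000998 to 0.0114 in PBS, 0.794 to 1.21 at day 1 and 0.0775 to 0.169 at day 28. Transcripts of the concentrative carrier came close in FPKM to those of the lysosomal carrier in the day 1 libraries and stayed well below them in the PBS and day 28 libraries.

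Slc52a2, a riboflavin carrier, stood at 13.1, 13.7 and 13.4 FPKM in PBS, 5.15, 6.13 and 6.53 at day 1 and 10.3, 4.54 and 7.33 at day 28. It was lower at day 1 (log2 fold change -1.06, SE 0.25, adjusted p = 0.0201), and at day 28 the change of -0.84 had an adjusted p of 0.0613 (0.0276 without NM28d_0). Slc5a6, the sodium-dependent carrier of biotin and pantothenate, ran at 66.1, 69.5 and 77.0 FPKM in PBS, 56.1, 49.1 and 50.8 at day 1 and 101, 103 and 80.7 at day 28. Its 3 groups did not overlap, with day 1 lowest and day 28 highest, and the call was between the NM days (0.85, SE 0.15, adjusted p = 0.00415), while neither change from PBS passed (-0.44 with adjusted p = 0.0888, and 0.41 with adjusted p = 0.119). Slc46a3, a lysosomal carrier, was not called in any comparison, with means of 17.6, 14.9 and 16.3 FPKM. The class as a whole gave 1 higher and 2 lower of 9 at day 1, 1 higher at day 28, and 2 higher and 1 lower between the NM days, with class medians of -0.22, 0.18 and 0.22 on the log2 scale. Of all genes tested, 5.28% were higher and 4.58% lower at day 1, 3.07% and 3.98% at day 28, and 4.75% and 6.88% between the NM days. Counts for this class and the classes below are descriptions, to be read beside these shares. The calls of Slc29a3 at day 1 ended without PBS_1 or NM1d_0 (adjusted p 0.0715 to 0.0733) and, between the NM days, without PBS_1, NM1d_0 or NM1d_2 or any NM day 28 library (0.0609 to 0.144), as it did under quantile normalisation and with only the 6 libraries compared. The Slc52a2 call ended without PBS_0 or PBS_1 or NM1d_0 or NM1d_1 (0.0531 to 0.0967).

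Among the carriers of amino acids and peptides, the partners Slc7a6 and Slc7a7 of Slc3a2 moved in opposite directions at day 28. Slc7a6 and Slc7a7 encode the y+LAT light chains, which swap cationic for neutral amino acids, and both need the Slc3a2 heavy chain. Slc7a6 FPKM was 9.31, 11.8 and 14.4 in PBS, 24.0, 21.1 and 23.5 at day 1 and 27.3, 24.5 and 23.6 at day 28. Every NM library lay above every PBS library, with log2 fold changes of 0.91 (SE 0.18, adjusted p = 0.00959) at day 1 and 1.04 (SE 0.18, adjusted p = 0.00547) at day 28. Slc7a7 FPKM was 108, 113 and 88.8 in PBS, 65.5, 73.4 and 78.2 at day 1 and 72.0, 58.2 and 72.4 at day 28. Every NM library lay below every PBS library, with a change of -0.60 (SE 0.16, adjusted p = 0.0404) at day 28 and of -0.50 (adjusted p = 0.0669) at day 1, where it was called without PBS_2 (0.0456) or NM28d_1 (0.0375). The ratio of Slc7a6 to Slc7a7 ran from 0.0864 to 0.162 in PBS, 0.288 to 0.366 at day 1 and 0.326 to 0.420 at day 28, so Slc7a7 remained the more abundant in all 9 libraries.

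Slc7a5, the light chain for large neutral amino acids, stood at 4.06, 4.60 and 5.54 FPKM in PBS, 11.3, 11.0 and 6.94 at day 1 and 7.10, 4.24 and 5.89 at day 28. The day 1 libraries lay above PBS (log2 fold change 0.89, SE 0.25, adjusted p = 0.0407), and the day 28 libraries overlapped both other groups. Slc3a2 itself had means of 157 ± 33.6, 121 ± 10.1 and 116 ± 6.70 FPKM (SD, n = 3) and was not called. Slc7a8, another of its light chains, was not called either, with means of 78.3, 52.4 and 62.8 FPKM. Without NM28d_1, however, Slc7a8 was lower at day 1 (adjusted p 0.0285) and day 28 (0.0336).

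Slc15a3, a proton-coupled peptide and histidine carrier of the lysosome, was lower at day 1. Its FPKM was 160.3, 154 and 134 in PBS, 88.0, 116 and 89.8 at day 1 and 114, 124 and 101 at day 28. The PBS libraries lay above all others, and the change on the log2 scale was -0.61 (SE 0.16, adjusted p = 0.0336) at day 1 and -0.40 (adjusted p = 0.154) at day 28. Its close relative Slc15a4 had means of 30.3, 24.8 and 23.6 FPKM and was not called. Also not called were the glutamate carrier Slc1a3 (4.66, 7.15 and 7.09 FPKM), the glutamine carriers Slc1a5 (16.2, 16.9 and 15.2) and Slc38a2 (27.1, 32.3 and 28.7), and the lysosomal Slc36a1 (43.2, 31.8 and 43.4). The 20 genes gave 2 higher and 1 lower at day 1, 1 and 1 at day 28, and between the NM days 0 by limma, with 2 at an unadjusted p under 0.05, and class medians of -0.16, 0.02 and 0.04. The Slc7a6 call at day 1 ended without NM1d_0 (adjusted p 0.0509), that of Slc7a5 without any PBS library, NM1d_0 or NM1d_1 or NM28d_2 (0.0534 to 0.173), under quantile normalisation or with no filter, that of Slc15a3 without PBS_0 or PBS_1, NM1d_0 or NM1d_2 or NM28d_0 (0.0512 to 0.146) or under quantile normalisation, and that of Slc7a7 without any library but PBS_2 (0.0504 to 0.178), in a fit of only the 6 libraries or under median-of-ratios scaling.

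**Figure D3:**
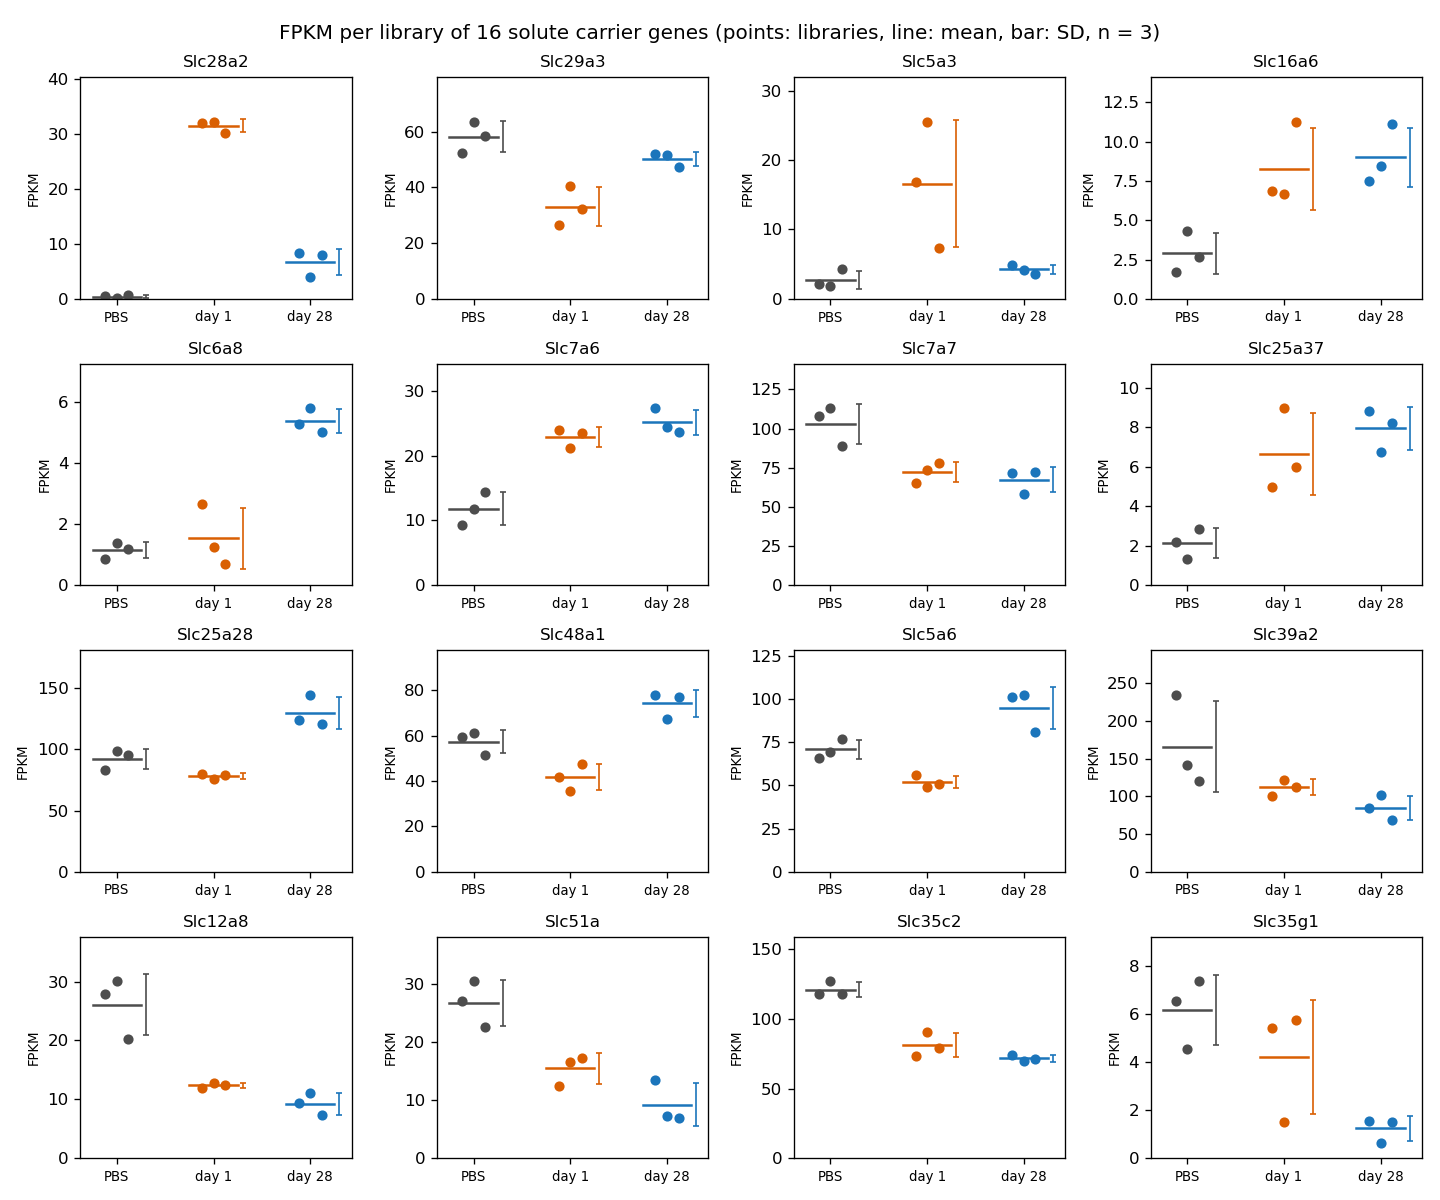
FPKM in each of the 9 libraries for 16 solute carrier genes, with points for libraries, lines for group means and bars for SD (n = 3). Slc28a2 stands near 0 in PBS and at 31.5 FPKM on average at day 1, and Slc7a6 and Slc7a7 move in opposite directions.

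Carriers of sugars, osmolytes and monocarboxylates included their highest levels of Slc5a3 at day 1 and of Slc16a6 at both days after NM. Slc5a3, the sodium-coupled carrier of myo-inositol, an osmolyte and lipid head group, stood at 2.13, 1.89 and 4.26 FPKM in PBS, 16.9, 25.6 and 7.37 at day 1 and 4.87, 4.22 and 3.63 at day 28. The day 1 libraries were highest but ranged widely among themselves, and PBS and day 28 overlapped. Its log2 fold change was 2.13 (SE 0.37) at day 1 against PBS, 0.53 at day 28 and -1.60 (SE 0.37) between the NM days. Slc16a6, a member of the monocarboxylate carrier family, stood at 1.72, 4.32 and 2.65 FPKM in PBS, 6.84, 6.66 and 11.3 at day 1 and 7.51, 8.42 and 11.1 at day 28. All NM libraries lay above all PBS libraries, with log2 fold changes of 1.27 (SE 0.29, adjusted p = 0.0179) and 1.40 (SE 0.29, adjusted p = 0.0131). Its abundant relative Slc16a3, the lactate exporter of glycolytic cells, was not called (42.0, 35.9 and 31.8 FPKM), nor was Slc16a1 (3.47, 4.95 and 4.37).

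Slc50a1, a sugar carrier of the SWEET family and the most abundant gene of the class, had means of 173, 145 and 164 FPKM and was not called. Slc37a1, a sugar phosphate exchanger of the ER, fell from 23.3 ± 5.05 FPKM in PBS to 13.7 ± 1.70 at day 28 (SD, n = 3), a log2 change of -0.71, without overlap, while its relative Slc37a2 was not called (12.7, 11.9 and 18.0) unless NM1d_1 was left out, when day 28 was above day 1 (adjusted p 0.0213). limma gave Slc37a1 an adjusted p of 0.0454. The 11 genes gave 2 higher and 0 lower at day 1 by limma, 3 being at an unadjusted p under 0.05 in either direction, 1 and 1 at day 28, and 1 lower between the NM days, with class medians of -0.14, 0.27 and 0.17. The Slc16a6 call ended at day 1 without PBS_0 or NM1d_0 or NM1d_2 (adjusted p 0.0513 to 0.0641) and at day 28 without NM28d_2 (0.0541). The Slc37a1 call ended without any library but PBS_0 (0.0532 to 0.143), and with no filter, median-of-ratios scaling, the highest isoform or only the 6 libraries compared.

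Both mitochondrial iron carriers were called, Slc25a37 against PBS and Slc25a28 between the NM days. Slc25a37 (mitoferrin 1) and Slc25a28 (mitoferrin 2) bring iron into mitochondria for heme and iron-sulfur cluster synthesis, the former best known from erythroid cells. Slc25a37 FPKM was 2.19, 1.34 and 2.86 in PBS, 4.98, 8.98 and 5.99 at day 1 and 8.85, 6.76 and 8.24 at day 28. All NM libraries lay above all PBS libraries, with log2 fold changes of 1.29 (SE 0.26, adjusted p = 0.0111) and 1.54 (SE 0.26, adjusted p = 0.00505). Slc25a28 FPKM was 82.7, 98.5 and 94.97 in PBS, 79.8, 75.7 and 79.1 at day 1 and 124, 145 and 120.3 at day 28. The 3 groups did not overlap, and day 28 exceeded day 1 by 0.72 (SE 0.14, adjusted p = 0.00745), while the day 28 difference from PBS was 0.49 (adjusted p = 0.0613). Slc25a37 amounted to between 0.0136 and 0.0301 of Slc25a28 in PBS, 0.0624 and 0.119 at day 1 and 0.0467 and 0.0714 at day 28. The erythroid marker sum ranged from 124 to 208 in the NM libraries and from 128 to 559 in PBS. Neutrophil sums ran from 69.7 to 106 in PBS, 530.4 to 906 at day 1 and 210.2 to 724 at day 28. Monocyte sums ran from 70.7 to 74.7, 167 to 220.4 and 103 to 143 in the same order. Epithelial and T cell sums were above their PBS range at day 1 and overlapped it at day 28. The part of any of these cells in the changes of both carriers was not tested.

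Slc25a1, which exports citrate from mitochondria for lipid synthesis, stood at 40.5, 43.3 and 28.8 FPKM in PBS, 15.3, 24.3 and 25.96 at day 1 and 37.4, 37.5 and 34.9 at day 28. The day 1 libraries lay below all others, by -0.77 on the log2 scale (SE 0.21, adjusted p = 0.0429) from PBS, with a rise of 0.75 (SE 0.21, adjusted p = 0.0427) to day 28. The bulk carriers of oxidative phosphorylation were not called. Slc25a5 had 361, 284 and 172 FPKM in PBS, 296, 241 and 289.7 at day 1 and 346, 218 and 318 at day 28, with wide overlap. The phosphate carrier Slc25a3 (164, 182 and 185 FPKM) and the adenine nucleotide carrier Slc25a4 (33.4, 39 and 39.6) were not called either. Nor was Slc25a20, the carnitine-acylcarnitine carrier of fatty acid oxidation (64.3, 48.4 and 49.1). Of the 25 genes, 1 was higher and 1 lower at day 1, 1 higher at day 28 and 2 higher between the NM days, with class medians of -0.02, 0.17 and 0.18. Without PBS_1 the Slc25a37 call at day 1 ended (adjusted p 0.0589). The Slc25a1 call at day 1 ended without PBS_0 or PBS_1, NM1d_0 or NM1d_1 or NM28d_0 or NM28d_2 (0.0576 to 0.181), with no filter, under either scaling or with only the 6 libraries compared, and that between the NM days without any library but PBS_2 and NM1d_2 (0.0501 to 0.145) or with no filter.

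Among carriers of metals and heme, calls fell on the heme carrier Slc48a1 and on 4 of the 9 Slc39 genes, which encode zinc importers, in mixed directions. Slc48a1 (HRG1) takes heme out of the phagolysosome after red cells are digested. Its FPKM was 59.6, 61.1 and 51.5 in PBS, 42.0, 35.7 and 47.4 at day 1 and 78.1, 67.5 and 76.9 at day 28. The groups did not overlap, with day 1 lowest and day 28 highest, and the call was between the NM days (log2 fold change 0.82, SE 0.16, adjusted p = 0.00605), while the changes from PBS were -0.46 (adjusted p = 0.0873) and 0.37 (adjusted p = 0.177). Groups that do not overlap were common among all genes tested, with day 1 wholly below PBS for 18.1% and wholly above for 15.2%, day 28 below PBS for 14.4% and above for 12.7%, and day 28 below day 1 for 15.7% and above for 15.1%.

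Slc39a2, a zinc importer of the ZIP family and the most abundant metal carrier here, stood at 235, 142 and 121 FPKM in PBS, 101, 122 and 113 at day 1 and 84.5, 101 and 69.0 at day 28. PBS_0 was far above the rest, all PBS libraries lay above all day 28 libraries, and the log2 fold change at day 28 was -0.91 (SE 0.23, adjusted p = 0.0355). Slc39a3, another importer, fell at day 28 (19.7 ± 2.48 to 9.98 ± 2.97 FPKM, SD, n = 3), a log2 change of -0.94 with an SE of 0.26. Its adjusted p from limma was 0.0461, and the change at day 1 was -0.78 (adjusted p = 0.0757). Further members of the family differed between the NM days, Slc39a5 higher at day 28 (20.8, 14.9 and 24.0 FPKM in PBS, day 1 and day 28; 0.65, adjusted p = 0.025) and Slc39a7, which releases zinc from the ER, lower (27.9, 29.0 and 19.3; -0.57, adjusted p = 0.044). The copper carrier Slc31a1 (14.4, 14.9 and 18.4) and the iron carrier Slc11a2 (5.51, 5.92 and 4.55) were not called. Nor were the importer Slc39a1 (32.0, 28.0 and 25.3), Slc39a6, Slc39a9, Slc39a10 and Slc39a11. Slc39a3 was also called lower at day 1 without NM1d_1 (adjusted p 0.0472) or NM28d_1 (0.0332).

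Metallothioneins, which bind zinc in the cytosol, were on a list of 30 companion genes of the carriers, of which 28 were tested. Of these 28, 2 were lower at day 1 (7.14%), 4 lower at day 28 (14.3%) and 2 lower between the NM days (7.14%). Of all genes tested, 4.58%, 3.98% and 6.88% were lower in the same comparisons. Mt1 had 810.0 ± 183 FPKM in PBS, 441 ± 78.4 at day 1 and 433 ± 30.2 at day 28 (SD, n = 3). Its log2 fold changes were -0.86 (adjusted p = 0.0219) and -0.88 (adjusted p = 0.0247). Mt2A had 673, 286 and 440.0 FPKM, with -1.24 (adjusted p = 0.00231) at day 1 and -0.61 (adjusted p = 0.0797) at day 28. Lamtor2, of the lysosomal Ragulator complex, was lower at day 28 (-0.93, adjusted p = 0.0328). Lamtor1 (0.22, adjusted p = 0.652) and Lamtor3 (0.34, adjusted p = 0.339), of the same complex, were not called there. Calls of companion genes were not followed when the fit was repeated with other settings. Within the metal class limma called 0 of 20 genes at day 1, with 4 at an unadjusted p under 0.05, then 2 lower at day 28, and 2 higher and 1 lower between the NM days, with class medians of -0.14, -0.20 and -0.14. The Slc39a2 call ended without PBS_0 or PBS_1, NM1d_2 or NM28d_0 or NM28d_2 (adjusted p 0.0556 to 0.119), that of Slc39a3 without any library but NM1d_1 and NM28d_0 (0.0547 to 0.168), that of Slc39a5 without NM1d_0 or NM1d_1 or NM28d_0 or NM28d_2 (0.053 to 0.0993) and that of Slc39a7 without any library but PBS_2 (0.0531 to 0.13). With no filter or only the 6 libraries compared, the calls of Slc39a2 and Slc39a3 also ended, as did that of Slc39a3 under either scaling and the highest isoform, and that of Slc39a7 with the highest isoform or only the 6 libraries.

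Carriers of inorganic ions showed a fall of Slc12a8 at both days and rises at day 28. Slc12a8, a member of the cation-chloride cotransporter family for which nicotinamide mononucleotide transport has been reported in mice, stood at 27.8, 30.1 and 20.2 FPKM in PBS, 11.9, 12.9 and 12.4 at day 1 and 9.36, 11.0 and 7.28 at day 28. The 3 groups did not overlap, and the level fell by 0.999 (SE 0.20, adjusted p = 0.0107) at day 1 and by 1.40 (SE 0.20, adjusted p = 0.00211) at day 28 on the log2 scale. Slc12a7, the potassium-chloride cotransporter KCC4, stood at 24.5, 15.9 and 19.4 FPKM in PBS, 16.4, 23.1 and 17.1 at day 1 and 32.1, 35.2 and 32.3 at day 28. All day 28 libraries lay above all others, by 0.73 (SE 0.19, adjusted p = 0.0424) from PBS and 0.80 (SE 0.19, adjusted p = 0.0197) from day 1. Slc26a6, an exchanger of chloride, bicarbonate and oxalate, was higher at day 28 than in PBS (58.8 ± 4.52 to 88.3 ± 3.98 FPKM, SD, n = 3), a log2 change of 0.58. Its adjusted p from limma was 0.0355.

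Between the NM days, the anion carrier Slc26a9 (4.82, 4.66 and 9.73 FPKM in PBS, day 1 and day 28) was higher at day 28 by 0.94 (adjusted p = 0.0379, and 0.0478 against PBS without PBS_2), and Slc8b1, the mitochondrial exchanger of sodium for calcium, by 0.49 (127, 92.4 and 129.8 FPKM, adjusted p = 0.0486). Of the 17 genes, 1 was lower at day 1, 2 were higher and 1 lower at day 28, and 3 were higher between the NM days, with class medians of -0.18, -0.01 and 0.15. The Slc12a8 call at day 1 ended without PBS_1 or NM1d_0 (adjusted p 0.0537 to 0.0651). The Slc12a7 call at day 28 ended without any library but PBS_0 and NM1d_1 (0.053 to 0.192), with no filter or with only the 6 libraries compared, and that between the NM days without NM1d_0 or NM1d_2 or NM28d_0 or NM28d_2 (0.0503 to 0.0793). The call of Slc26a6 ended without PBS_0 or PBS_1, NM1d_2 or any NM day 28 library (0.0519 to 0.133) or with only the 6 libraries compared, that of Slc26a9 without PBS_1, NM1d_0 or NM1d_2 or any NM day 28 library (0.0588 to 0.134) or with no filter, and that of Slc8b1 without any library but PBS_2 (0.0533 to 0.154), under both other pseudocounts, both scalings, the stricter filter or with only the 6 libraries compared.

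Nucleotide sugar carriers supply the Golgi and ER with donors for glycosylation. Slc35c2, a Golgi protein of the GDP-fucose carrier family and the most abundant gene of this class, fell at both days, with 118, 127 and 118 FPKM in PBS, 73.7, 90.8 and 79.2 at day 1 and 74.2, 69.6 and 71.4 at day 28. Every NM library lay below every PBS library, by -0.57 (SE 0.14, adjusted p = 0.0239) and -0.75 (SE 0.14, adjusted p = 0.00827) on the log2 scale. Slc35g1, a less studied member of the family, stood at 6.56, 4.54 and 7.37 FPKM in PBS, 5.43, 1.496 and 5.74 at day 1 and 1.57, 0.650 and 1.501 at day 28. The day 28 libraries lay below PBS (log2 fold change -1.68, SE 0.37, adjusted p = 0.0186) and overlapped day 1 through NM1d_1, without which day 28 was called lower than day 1 (adjusted p 0.0128). Slc35b4, a carrier of UDP-xylose and UDP-N-acetylglucosamine, was higher at day 28 than at day 1 by 0.62 (66.4, 44.4 and 70.0 FPKM in PBS, day 1 and day 28, adjusted p = 0.0427), with a change of -0.57 (adjusted p = 0.0653) from PBS to day 1, called without NM28d_1 (0.0179). The 17 genes gave 1 lower at day 1, 2 lower at day 28 and 1 higher between the NM days, with class medians of -0.13, -0.06 and -0.17. The Slc35c2 call ended at day 1 without PBS_0 or PBS_1 or NM1d_0 or NM1d_2 (adjusted p 0.0555 to 0.115) or under quantile normalisation, and at day 28 without PBS_1 (0.0531). That of Slc35g1 ended without PBS_0 or PBS_2 (0.0563 to 0.0578) or with no filter, and that of Slc35b4 without any library but PBS_2 and NM28d_0 (0.0524 to 0.134), under quantile normalisation or in a fit of only the 6 libraries.

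The study's title concerns lipids, and the lipid and choline class had its calls at day 28. Slc27a4 encodes a fatty acid transport protein that also has acyl-CoA synthetase activity. Its FPKM was 37.8, 39.1 and 35.0 in PBS, 32.1, 34.1 and 31.2 at day 1 and 27.4, 21.0 and 24.2 at day 28. The 3 groups did not overlap, and the log2 fold change at day 28 was -0.61 (SE 0.15, adjusted p = 0.0343). Slc44a4, of the choline transporter-like family, stood at 4.62, 12.7 and 6.24 FPKM in PBS, 3.22, 6.75 and 5.72 at day 1 and 1.72, 1.63 and 2.996 at day 28, and was lower at day 28 (-1.43, SE 0.35, adjusted p = 0.03) without overlap with PBS. The abundant choline carrier Slc44a2 (115, 95.6 and 124 FPKM) and the fatty acid transport protein Slc27a1 (31.4, 25.9 and 36.4) were not called. limma called 0 of the 11 genes at day 1 (1 at an unadjusted p under 0.05), 2 lower at day 28 and 0 between the NM days (6 unadjusted), with class medians of -0.19, -0.15 and -0.06. The Slc27a4 call ended without PBS_0 or PBS_1, NM1d_2 or NM28d_1 or NM28d_2 (adjusted p 0.0557 to 0.153) or with only the 6 libraries compared, and that of Slc44a4 without PBS_1 or NM28d_0 or NM28d_1 (0.0599 to 0.135), with no filter or with only the 6 libraries compared.

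Slc27a2, another fatty acid transport protein, is described here after its values were seen, because a single library set its day 28 mean. Its FPKM was 28.5, 25.8 and 23.5 in PBS, 26.8, 33.8 and 24.9 at day 1 and 3.93, 32.6 and 5.50 at day 28. NM28d_1 lay among the PBS and day 1 libraries, and the other two lay far below. With all libraries the log2 fold change from PBS was -1.39 (SE 0.52, adjusted p = 0.13), and without that library it was -2.25 (SE 0.20, adjusted p = 0.000119), where the remaining day 28 libraries are assumed to vary like the other groups. Without NM28d_0 it was -0.86 (adjusted p = 0.346) and without NM28d_2 it was -1.06 (adjusted p = 0.318).

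Carriers of organic ions and other organic solutes held their calls in the comparisons with day 28. Slc6a8, which imports creatine, stood at 0.860, 1.38 and 1.202 FPKM in PBS, 2.65, 1.254 and 0.697 at day 1 and 5.28, 5.79 and 5.02 at day 28. The day 28 libraries lay above all others, PBS and day 1 overlapped, and the log2 fold change was 1.57 (SE 0.29) from PBS and 1.40 (SE 0.29) from day 1. Slc22a5, the sodium-coupled carnitine carrier, stood at 3.03, 3.37 and 2.21 FPKM in PBS, 6.05, 3.95 and 4.04 at day 1 and 6.08, 6.50 and 5.78 at day 28, and was higher at day 28 than in PBS (0.89, SE 0.23, adjusted p = 0.0369). Slc51a, the alpha chain of the carrier that exports bile acids and steroid conjugates, stood at 27.1, 30.5 and 22.6 FPKM in PBS, 12.4, 16.6 and 17.3 at day 1 and 13.4, 7.27 and 6.90 at day 28. All NM libraries lay below all PBS libraries, by -1.49 on the log2 scale (SE 0.24, adjusted p = 0.00402) at day 28 and -0.75 (adjusted p = 0.0737) at day 1. Without NM28d_0 it was also called at day 1 (adjusted p 0.0349) and between the NM days (0.0174).

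Slc47a1, a proton-coupled exporter of organic cations, was lower at day 28 (15.5 ± 1.54 to 9.10 ± 0.259 FPKM, SD, n = 3), a log2 change of -0.71, and is named after its values were seen. Its adjusted p from limma was 0.0286. Slc22a17, a lipocalin 2 receptor and the most abundant of the class, was not called (46.7, 36.5 and 33.6 FPKM). Outside the Slc symbols, the organic anion transporters Slco2b1 (166, 109.3 and 95.6 FPKM) and Slco3a1 (23.6, 20.6 and 7.39) were lower at day 28, by -0.79 (adjusted p = 0.0225) and -1.60 (adjusted p = 0.0086). Slco4a1, the remaining Slco gene of the companion list, had 2.65, 6.02 and 5.66 FPKM, with log2 changes of 0.86 (adjusted p = 0.083) at day 1 and 0.87 (adjusted p = 0.0899) at day 28 and no overlap with PBS. limma called 0 of the 8 genes at day 1 (3 at an unadjusted p under 0.05), 2 higher and 2 lower at day 28, and 1 higher between the NM days, with class medians of -0.17, -0.15 and -0.06. The Slc22a5 call ended without any library but NM1d_0 and NM1d_1 (adjusted p 0.0536 to 0.0923), with no filter or the stricter filter, under quantile normalisation or in a fit of only the 6 libraries, and that of Slc47a1 without any PBS library or NM28d_0 or NM28d_2 (0.0608 to 0.0907) or with only the 6 libraries compared.

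Some libraries stood apart from their group across many carriers. A gene was counted for a library where its FPKM was over 1.5-fold above or below both other libraries of the group. NM28d_1 had 21 such genes, 13 above and 8 below, PBS_2 had 17, 12 above and 5 below, and NM1d_1 had 13, 9 above and 4 below, while the other libraries had between 3 and 9. The cationic amino acid carrier Slc7a2, which supplies arginine, is described after its values were seen. It had 71.3, 95.6 and 220.0 FPKM in PBS, 71.4, 132 and 114 at day 1 and 93.5, 169 and 89.7 at day 28. Its highest value in each group fell in those same libraries, and it was not called. The median coefficient of variation over the 140 genes was 16.7% in PBS, 16.5% at day 1 and 15.8% at day 28, and the widest was 115% for Slc27a2 at day 28.

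**Figure D4:**
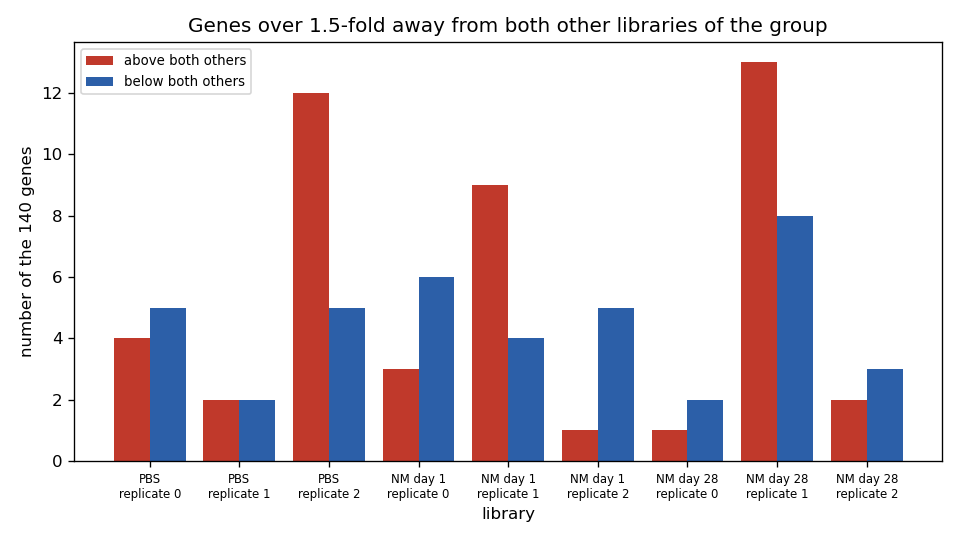
Number of the 140 solute carrier genes over 1.5-fold above (red) or below (blue) both other libraries of the same group, for each library. NM day 28 replicate 1 has the most, 21 genes.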

How the data were processed

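RNA of alveolar macrophages from 3 groups of 3 libraries was measured by paired end sequencing (75 bases a read, TruSeq RNA kit, RNeasy columns, per the labels' protocols). Per the submitters' processing notes, TopHat and Cuffdiff were used on rat build rn4. Their versions, the strand setting and the handling of multiply mapped reads are not given in the sources used here, so reads of near-identical or overlapping genes may be shared. The authors deposited FPKM values for 18197 transcripts per library, normalised for length and depth, and no read counts were used here. Relative depth was read from the most frequent ratio, between libraries, of FPKM values under 1 of the same transcript.

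Symbols came from a RefSeq table of the assembly GRCr8 (17189 of 18197 transcripts, 94.5%), and transcripts of a symbol were summed, which gave 17109 genes. Genes with at least 1 FPKM in at least 3 of 9 libraries (9885) were tested on log2(FPKM + 1) with limma 3.58.1 (R 4.3.3; lmFit, then eBayes with its trend option), two-sided, with 3 group means, a shared spread and Benjamini-Hochberg adjustment over all of them. The added 1 shrinks fold changes of low genes. Errors are SD over 3 libraries or SE of the fit. The p-values set a difference of group means against the spread between libraries within groups, drawn by limma towards a trend over all genes tested. The sources do not say whether each library came from a single rat. The fit was tested on simulated data. Tables and figures were made in Python 3.11.15 with matplotlib 3.10.9, pandas 2.3.3 and numpy 2.4.6.

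The genes, substrate classes, marker and companion lists were chosen with earlier results of these data known. Genes named are, per comparison, up to 6 called members each way with the largest fold change and no overlap between groups, per class the most abundant gene and up to 2 called with the smallest p, and a list of well-known carriers. Slc4a1ap and Slc7a6os were assigned to a class of their own. The fit was repeated without a filter, with a stricter filter (5 FPKM), with 0.1 or 5 added instead of 1, after quantile normalisation or median-of-ratios scaling, and with the highest isoform alone, the replicate number as a block, only the 6 libraries compared, and each library left out in turn.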

Additional observations from a re-analysis of the deposited data

Results flagged for a closer look

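Genes were flagged where the day 28 and day 1 changes, measured against the same PBS libraries, differed by limma's test of NM day 28 against NM day 1. These log2 differences, day 28 minus day 1, were negative for Slc28a2 (-2.12), Slc5a3 (-1.60) and Slc39a7 (-0.57). They were positive for Slc6a8 (1.40), Slc26a9 (0.94), Slc5a6 (0.85), Slc48a1 (0.82), Slc12a7 (0.80), Slc25a1 (0.75), Slc25a28 (0.72), Slc39a5 (0.65), Slc35b4 (0.62), Slc29a3 (0.61) and Slc8b1 (0.49). Slc5a3 and Slc6a8 reached the level rule through 1 group, so their values are descriptions. Of the other genes, Slc28a2, Slc5a6, Slc48a1 and Slc25a28 were still called under all 18 alternatives. From day 1 to day 28, 11 of 14 epithelial, 4 of 8 monocyte, 3 of 7 T cell and 2 of 7 neutrophil markers tested were lower, 1 epithelial marker (Napsa) was higher, and 2 of 7 resident macrophage markers (Pparg and Siglec1) were higher with 0 lower by limma. Their part in these differences was not tested.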

How the results depend on the processing

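With Slc5a3 and Slc6a8 left out, since the level rule selected their rises, 41 changes of named genes were called. The 41 still include rises of Slc28a2, Slc16a6, Slc25a37 and Slc22a5 above PBS and falls of Slc35g1 and Slc44a4 at day 28. The level rule bears on those changes as well, so the tally is a description. Of these, 10 were still called under all 18 alternatives and 31 were not under at least 1. No named change, with those genes included, changed sign with a call, and 14 changes not called as reported were called under at least 1 alternative. The 10 were Slc28a2 in all 3 comparisons, Slc7a6, Slc12a8, Slc25a37 and Slc51a at day 28 against PBS, and Slc5a6, Slc25a28 and Slc48a1 between the NM days. Slc28a2 and Slc25a37 met the level rule through NM libraries only, so their rises above PBS are descriptions. Counts of members at day 28 against PBS moved with the spread and filter: 5 higher and 4 lower with only the 6 libraries compared, and 6 lower with no filter. Leaving out each library in turn gave between 3 and 6 higher and 0 and 11 lower at day 1, 4 and 8 higher and 3 and 11 lower at day 28, and 4 and 12 higher and 1 and 5 lower between the NM days, with 2 libraries standing for a group. The cause of these shifts was not tested.

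Replicate numbers are shared by the groups, but the 9 correlations of same-numbered libraries' deviations ran from -0.10 to 0.20, with 3 over 0.1, and a library matched its own number best in 7 of 18 cases, so the numbers were not taken as pairs. The highest correlation across groups was 0.248, of PBS_2 with NM28d_1. PBS_2 with NM1d_1 gave 0.199, and NM1d_1 with NM28d_1 gave 0.172. These libraries also stood most apart from their groups. The block does not join differently numbered libraries, and the cause of these links was not tested. The replicate block gave 7 lower rather than 11 at day 28 against PBS, with 6 higher there, 5 higher and 5 lower at day 1, and 9 higher and 4 lower between the NM days. Under the block 12 called changes of named genes were no longer called (adjusted p 0.0503 to 0.0766). They were Slc7a5 at day 1, Slc25a1 at day 1 and between the NM days, and Slc35b4, Slc39a7 and Slc8b1 between the NM days. At day 28 against PBS they were Slc7a7, Slc12a7, Slc26a6, Slc27a4, Slc39a3 and Slc47a1. The lists given by class of what ended each call leave the block out. With FPKM alone, counting error is unknown.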

Other observations

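Some members, named here after their values were seen, are sums of several transcripts whose split varied between libraries of a group. The glutamate carrier Slc1a3 has 4 listed transcripts, and Slc8a1, a sodium-calcium exchanger of the plasma membrane, has 9. The Slc8a1 sum was 10.5, 11.2 and 12.2 FPKM in PBS, 9.45, 12.8 and 11.2 at day 1 and 6.27, 10.3 and 6.08 at day 28, and the transcript that carried most of it in NM28d_1 and NM28d_2 stood at 0 in NM28d_0, where another held 6.22. Outside the 140 genes, the Slc genes tested below the level rule brought the total to 178, with the genes left out by name not counted. Over these 178 limma called 10 higher and 6 lower at day 1 (5.62% and 3.37%), beside 5.28% and 4.58% of all genes tested. At day 28 it called 9 higher and 11 lower (5.06% and 6.18%), beside 3.07% and 3.98%. Between the NM days it called 12 higher and 8 lower (6.74% and 4.49%), beside 4.75% and 6.88%.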
